A study of Mus musculus with 6 samples.

Results

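The regulatory T cell (Treg) genes described here are 10 of the 53379 genes listed for splenic follicular helper T (Tfh) cells: *Foxp3*, *Flicr*, *Ikzf2*, *Ikzf4*, *Tnfrsf18*, *Nt5e*, *Entpd1*, *Itgae*, *Nrp1* and *Il2ra*. They were chosen by name as genes known from Treg biology, and all 10 were found by their identifiers and passed the expression filter. The female mice, 6 to 8 weeks old, had received NP-CGG in complete Freund's adjuvant, and Tfh cells were taken on day 7. Of the 6 mice, 3 were *Prdm1*-CKO (*Prdm1* fl/fl with Cre driven by CD11c) and 3 were controls (CTL), which were either *Prdm1* fl/fl without Cre or *Prdm1* +/+ with CD11c-Cre. The labels do not say which of the control genotypes each CTL mouse carried, and they call the other group a knockout in one field and a knockdown in another. CD11c-driven Cre acts in dendritic cells (DCs), so the Tfh cells were T cells that had developed beside altered DCs and not T cells designed to lack *Prdm1*. The sort took live TCRβ+ CD4+ CXCR5+ PD1+ cells, with no gate on FOXP3 given for the sequenced cells, so FOXP3+ follicular regulatory T (Tfr) cells could be among them. In bulk RNA, fewer cells of a type and less RNA per cell cannot be told apart.

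FOXP3 is the transcription factor that defines Treg cells, and Tfr cells are the FOXP3+ cells that enter the follicle, share CXCR5 and PD1 with Tfh cells and restrain the germinal center. Around FOXP3, Treg cells carry a set of proteins: the Ikaros family factors HELIOS (*Ikzf2*) and EOS (*Ikzf4*), the high-affinity IL-2 receptor chain CD25 (*Il2ra*), the TNF receptor GITR (*Tnfrsf18*), the ectoenzymes CD39 (*Entpd1*) and CD73 (*Nt5e*) that turn extracellular ATP into adenosine, and the surface proteins neuropilin-1 (*Nrp1*) and CD103 (*Itgae*). *Flicr* is a noncoding RNA from the *Foxp3* locus that is known to lower *Foxp3* expression. Several of these genes are not exclusive to Treg cells, as activated T cells make CD25 and GITR, and Tfh cells can carry CD73.

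*Foxp3* and *Flicr* lie together on the X chromosome, and their overlap bears on how their counts can be read. In GENCODE M21 on GRCm38, *Foxp3* spans positions 7573644 to 7595245 and *Flicr* positions 7573600 to 7581027, both on the plus strand. They share 853 bases of exon, which is 18.6% of the exon length of *Foxp3* and 23.8% of that of *Flicr*. Both *Foxp3* starts in RefSeq (GRCm38.p6) fall within the last exon of *Flicr*, at positions 7577908 to 7581027. How reads on such shared bases were assigned is not given in the sources used here. Sequences upstream of the *Foxp3* starts are shown because they are at once the promoter side of *Foxp3* and part of the *Flicr* transcript, and that before the *Il2ra* start because CD25 receives the IL-2 signal on which FOXP3 depends. The first *Foxp3* sequence is shortened to 141 bases and ends 109 bases before its start, because the annotation places an untranslated region there, and the other 2 are the full 250 bases up to their starts. They are printed 5′ to 3′ on the plus strand, for chrX:7579426-7579566, chrX:7580233-7580482 and chr2:11642542-11642791, with every match to the motifs TTCNNNGAA (the STAT type) and GGAAA (the NFAT core, TTTCC on the other strand) in capitals.

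Foxp3, first start: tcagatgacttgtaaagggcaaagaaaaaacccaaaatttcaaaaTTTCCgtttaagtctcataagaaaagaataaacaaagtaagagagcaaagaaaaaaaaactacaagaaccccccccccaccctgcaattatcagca
Foxp3, second start: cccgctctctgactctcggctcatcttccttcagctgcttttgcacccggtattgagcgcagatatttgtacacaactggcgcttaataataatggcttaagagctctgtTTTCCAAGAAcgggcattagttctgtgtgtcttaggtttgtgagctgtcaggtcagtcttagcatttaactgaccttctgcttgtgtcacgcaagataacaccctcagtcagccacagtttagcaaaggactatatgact
Il2ra, first start: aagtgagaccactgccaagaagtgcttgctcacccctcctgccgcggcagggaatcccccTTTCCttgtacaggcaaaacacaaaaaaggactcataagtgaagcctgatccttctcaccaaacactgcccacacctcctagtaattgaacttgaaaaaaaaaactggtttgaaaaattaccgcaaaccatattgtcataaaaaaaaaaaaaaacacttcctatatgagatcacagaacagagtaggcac

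In the window before the second *Foxp3* start, the match to TTCNNNGAA and the match to GGAAA on the other strand overlap, and the run of capitals holds both. Over 250 bases before a start, searched on both strands, TTCNNNGAA occurred in 7.02% of 32851 RefSeq windows and GGAAA in 55.6%. Of the 9 windows found for 7 of the genes, TTCNNNGAA occurred in 2, before the second start of *Foxp3* and before *Tnfrsf18*, and GGAAA occurred in 6, from 5 of the genes. A match describes letters only and is not evidence of binding.

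Total counts per mouse lay between 7147601 and 16973392, and a floor of 3 counts corresponded to 0.177 to 0.420 CPM (counts scaled to library size), a floor that covers counting error only. CTL replicate 2 stood apart from the other 5 mice in its profile over all genes (first principal component, 56.4% of the variance), so the results below are also given without it where that matters. That library had the fewest genes with a count, 16650 at a total of 8623180, against 18480 in CTL replicate 3 at the smaller total of 7147601. Why it differed was not tested. The T cell genes and the Tfh genes were present in all 6 mice, with *Cd4* between 774 and 1061 CPM, *Cxcr5* between 254 and 477, *Pdcd1* between 188 and 385 and *Bcl6*, the Tfh lineage factor, between 66.0 and 124. *Prdm1* itself was at 28.8 ± 1.23 CPM (SD, n = 3) in CTL and 30.6 ± 0.374 CPM (SD, n = 3) in *Prdm1*-CKO Tfh cells, a log2 fold change of 0.09 (standard error 0.19), in a cell type that the Cre was not designed to target. Every *Prdm1*-CKO mouse was above every CTL mouse for *Prdm1*, as in 4.56% of all genes tested, with an unadjusted p of 0.657 in edgeR. Nothing in the labels says that the mice differ in batch. The p values rest on these 6 mice, and those of edgeR also draw on variation estimated across genes.

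All 10 Treg genes were detected in the sorted Tfh cells, *Flicr* and *Itgae* with as few as 11 and 44 counts in a library and the other 8 with at least 247 in each, and none of them passed the test of a difference between the groups. At an adjusted p under 0.05 in edgeR's quasi-likelihood test, 0 of the 10 genes were called, where 0% of the 14555 genes tested were called. At an unadjusted p under 0.05 the count was also 0 of 10, where 2.35% of all genes tested passed, 0.928% higher and 1.42% lower in *Prdm1*-CKO Tfh cells. The Wald test of DESeq2 likewise called 0 of 10, both adjusted (0.0346% of its 26030 genes) and unadjusted (2.62%). For none of the 10 did the values of the 3 CTL and the 3 *Prdm1*-CKO mice separate, against 8.42% of all genes tested. The log2 fold change (*Prdm1*-CKO over CTL) was above 0 for 4 genes and below 0 for 6, with a median of -0.11, and over all genes tested the median was 0.01 and 48.9% lay below 0. Adjusted p values ran from 0.996 to 1.00 in edgeR, and exact two-sided permutation tests of single genes, which cannot go below 0.1 with 3 mice against 3, gave p values from 0.3 to 1.0.

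**Figure D1:**
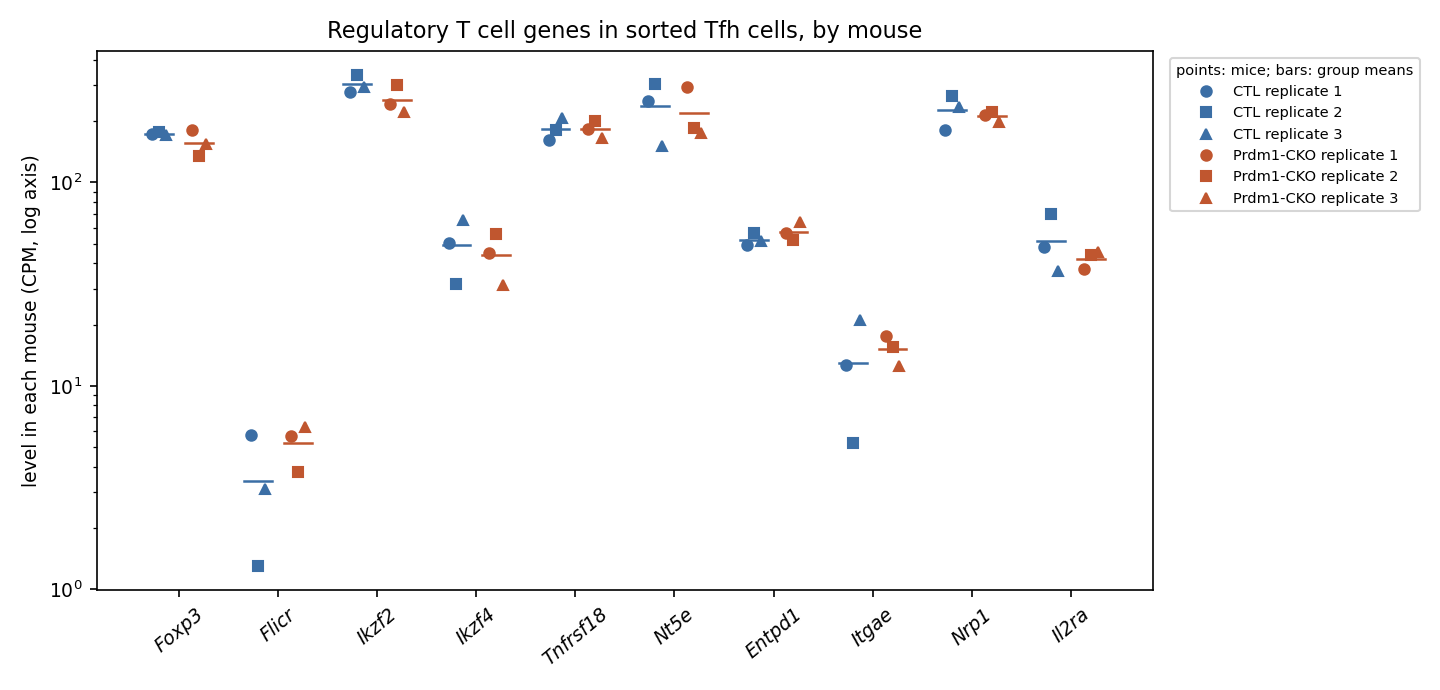
Level of each Treg gene in each of the 6 mice, in CPM on a log axis, with CTL mice in blue, *Prdm1*-CKO mice in orange, a symbol for each replicate number and short bars for the group means (n = 3). The groups overlap for all 10 genes, and the widest scatter is that of *Flicr* and *Itgae*, in which CTL replicate 2 is the lowest mouse.

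*Foxp3* was at 173, 176 and 171 CPM in the 3 CTL mice and at 182, 134 and 155 CPM in the 3 *Prdm1*-CKO mice. The CTL mice were nearly equal, while the *Prdm1*-CKO mice held both the highest and the lowest of the 6 values. The SD was 2.77 CPM in CTL, a coefficient of variation of 1.60% that was below the counting error of single libraries (1.76% to 2.94%), against 23.8 CPM or 15.2% in *Prdm1*-CKO mice. The log2 fold change was -0.14 (standard error 0.16), and the 95% confidence interval of the fold ran from 0.706 to 1.16. Set against *Cd4*, the coreceptor used to sort the cells, there were 19.3, 16.6 and 16.6 *Foxp3* counts per 100 *Cd4* counts in CTL mice and 22.1, 17.3 and 18.3 in *Prdm1*-CKO mice. These ratios overlapped as well (two-sided exact permutation test, p = 0.5). *Cd4* had an unadjusted p of 0.0465 in edgeR and was lower in every *Prdm1*-CKO mouse, so the ratio has a higher mean in *Prdm1*-CKO mice (19.2 against 17.5) where the CPM has a lower one.

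Of *Flicr*, the noncoding RNA of the locus, CTL mice had 84, 11 and 21 counts, while 101, 37 and 92 were seen in *Prdm1*-CKO mice, or 5.75, 1.30 and 3.11 CPM against 5.69, 3.76 and 6.30 CPM. CTL replicates 2 and 3 were the lowest, and CTL replicate 1 lay among the *Prdm1*-CKO mice. Its log2 fold change of 0.62 (standard error 0.60) was the largest of the 10 and also the least precise, with a 95% interval of the fold from 0.591 to 3.99. Without CTL replicate 2 the log2 fold change was 0.22, and without CTL replicate 1 it was 1.24, with adjusted p values of 1.00 and 0.737 in edgeR. Per 100 *Foxp3* counts there were 3.32, 0.739 and 1.82 *Flicr* counts in CTL and 3.13, 2.80 and 4.07 in *Prdm1*-CKO mice, which overlap (two-sided exact permutation test, p = 0.3).

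*Ikzf2*, which encodes HELIOS, had the highest mean CPM of the set, at 278, 337 and 295 CPM in CTL and 242, 301 and 221 CPM in *Prdm1*-CKO mice. *Prdm1*-CKO replicates 1 and 3 were below every CTL mouse, and *Prdm1*-CKO replicate 2 lay within the CTL range. Its log2 fold change was -0.25 (standard error 0.16), its unadjusted p of 0.156 in edgeR was the smallest of the 10, and the 95% interval of the fold ran from 0.648 to 1.09. *Ikzf4*, which encodes EOS, a partner of FOXP3 in repression, was at 50.4, 31.5 and 65.1 CPM in CTL and 44.9, 56.0 and 31.4 CPM in *Prdm1*-CKO mice. The low mice, CTL replicate 2 and *Prdm1*-CKO replicate 3, came one from each group, and the interval of the fold ran from 0.545 to 1.49.

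Among the receptors, *Tnfrsf18* (GITR) was at 161, 181 and 208 CPM in CTL and 182, 202 and 166 CPM in *Prdm1*-CKO mice, with equal group means of 183 CPM. Its log2 fold change was 0.00 (standard error 0.16) and the 95% interval of the fold, from 0.778 to 1.29, was one of the narrowest. *Il2ra* (CD25) was at 48.2, 70.2 and 36.5 CPM in CTL and 37.4, 43.8 and 45.5 CPM in *Prdm1*-CKO mice, so the CTL mice held both the highest and the lowest value. Its log2 fold change was the lowest of the 10, at -0.29 (standard error 0.26), and without CTL replicate 2, the highest mouse, it was -0.02. *Nrp1*, a semaphorin and VEGF receptor that marks thymus-derived Treg cells, was at 180.4, 266 and 235 CPM in CTL and 214, 223 and 197 CPM in *Prdm1*-CKO mice. All 3 *Prdm1*-CKO values fell within the CTL range, and the interval of the fold ran from 0.708 to 1.22. *Itgae*, the integrin chain CD103 that binds E-cadherin, had counts of 184, 44 and 142 in CTL mice, with 312, 153 and 183 in *Prdm1*-CKO mice, or 12.6, 5.21 and 21.01 CPM against 17.6, 15.6 and 12.5 CPM. The CTL mice again held both extremes, and the log2 fold change of 0.24 (standard error 0.47) was -0.15 without CTL replicate 2.

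The ectoenzymes of the adenosine route differed in how even they were across mice. *Entpd1* (CD39), which removes phosphates from ATP and ADP, was at 49.0, 56.1 and 51.8 CPM in CTL and 56.1, 52.3 and 63.7 CPM in *Prdm1*-CKO mice. It was the steadiest of the 10, with an SD of 0.13 in log2 CPM over the 6 mice, and its log2 fold change was 0.13 (standard error 0.17; interval of the fold 0.832 to 1.45). *Nt5e* (CD73), which makes adenosine from AMP, was at 251, 306 and 152 CPM in CTL and 296, 185 and 176 CPM in *Prdm1*-CKO mice. Each group had mice near the top and near the bottom of that range, and the interval of the fold ran from 0.582 to 1.48.

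**Figure D2:**
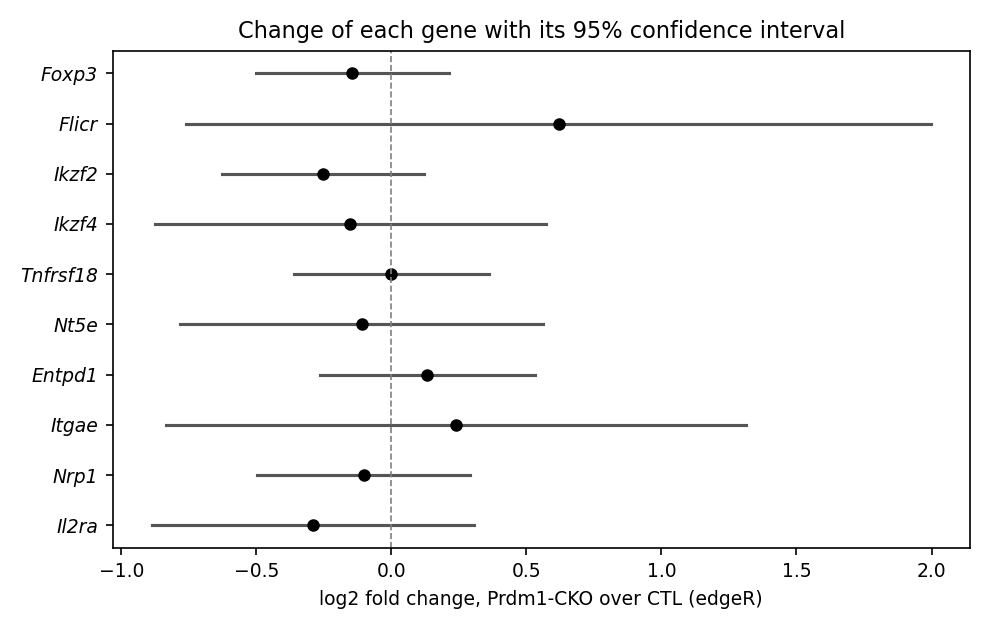
Log2 fold change of each Treg gene, *Prdm1*-CKO over CTL, from edgeR (points), with 95% confidence intervals (lines) and no change as a dashed line. All 10 intervals cross 0, the narrowest being those of *Foxp3* and *Tnfrsf18* and the widest that of *Flicr*.

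Levels of different genes were compared per kilobase of merged exon. By the median over the 6 mice the order was *Tnfrsf18* (119 CPM per kb), *Foxp3* (37.6), *Nt5e* (25.4), *Ikzf2* (24.7), *Nrp1* (22.3), *Entpd1* (9.71), *Ikzf4* (7.94), *Il2ra* (7.82), *Itgae* (3.07) and *Flicr* (1.32). Between neighbours in this order, the ranges over the 6 mice were apart in only 3 places: *Tnfrsf18* lay above *Foxp3*, *Nrp1* above *Entpd1* and *Il2ra* above *Itgae*. The ranges of the other 6 neighbouring pairs overlapped. Within each mouse, *Foxp3* was still above *Nt5e* and *Itgae* above *Flicr* in 6 of 6 mice, while the remaining 4 neighbours held their order in 3 to 5 of the 6 mice. Overlapping genes touch this scale, since 31.5% of the exon bases of *Foxp3* and 27.2% of those of *Tnfrsf18* are shared with other genes, the latter with the antisense gene *Gm16008*. Divided by the unshared exon bases alone, the mean level was 165 CPM per kb for *Tnfrsf18*, 52.7 for *Foxp3* and 1.61 for *Flicr*.

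How far these genes varied at all sets what a correlation between them can show. The SD of log2 CPM over the 6 mice was 0.13 for *Entpd1*, 0.15 for *Tnfrsf18*, 0.16 for *Foxp3*, 0.19 for *Nrp1* and 0.22 for *Ikzf2*. It was larger for *Il2ra* (0.34), *Nt5e* (0.42) and *Ikzf4* (0.43), and largest for *Itgae* (0.69) and *Flicr* (0.81). For comparison, the median SD was 0.27 over the 7546 tested genes with a mean of at least 20 CPM and 0.40 over all genes tested. CTL replicate 2 was the highest mouse in 4 of the 10 genes (*Ikzf2*, *Nt5e*, *Nrp1* and *Il2ra*) and the lowest in 2 (*Flicr* and *Itgae*).

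No relation of a Treg gene with *Foxp3* across the 6 mice passed the test. Of the 9 genes, 3 had a Pearson's r with *Foxp3* above 0, and the median r was -0.066, where the other 14554 genes tested had a median of -0.071 and 44.4% lay above 0. *Nt5e* had the highest value, with r = 0.57 (exact permutation p = 0.242) and Spearman's rho = 0.71 (exact permutation p = 0.136). Of those 14554 genes, 90.7% had a lower r with *Foxp3* than *Nt5e* did. After Benjamini-Hochberg adjustment over the 9 relations, the exact permutation p, from 720 pairings, was 0.999 for every r and 1 for every rho. The others had r = 0.10 for *Il2ra*, 0.09 for *Nrp1*, -0.00080 for *Ikzf2*, -0.07 for *Entpd1*, -0.14 for *Flicr*, -0.16 for *Ikzf4*, -0.18 for *Itgae* and -0.29 for *Tnfrsf18*. Their exact permutation p values ran from 0.621 to 0.999, and rho lay between -0.26 and 0.14 (exact permutation p from 0.658 to 1).

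*Prdm1*-CKO replicates 2 and 3, the lowest mice for *Foxp3*, were the farthest from its median. Without both, r was 0.78 for *Nt5e* and 0.74 for *Entpd1* and was -0.51 for *Ikzf2* and -0.55 for *Ikzf4*, over 4 mice whose *Foxp3* values lay between 171 and 182 CPM. The sign of most relations rested on single mice. Without CTL replicate 2, r was 0.28 for *Flicr*, 0.02 for *Ikzf4* and 0.24 for *Itgae*, and -0.21 for *Nrp1* and -0.40 for *Il2ra*, each with the sign opposite to that over 6 mice. The r of *Nt5e* with *Foxp3*, the highest of the 9, stayed above 0 with any 1 mouse left out, between 0.45 and 0.86. Each group holds 3 mice, too few for a correlation within it.

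**Figure D3:**
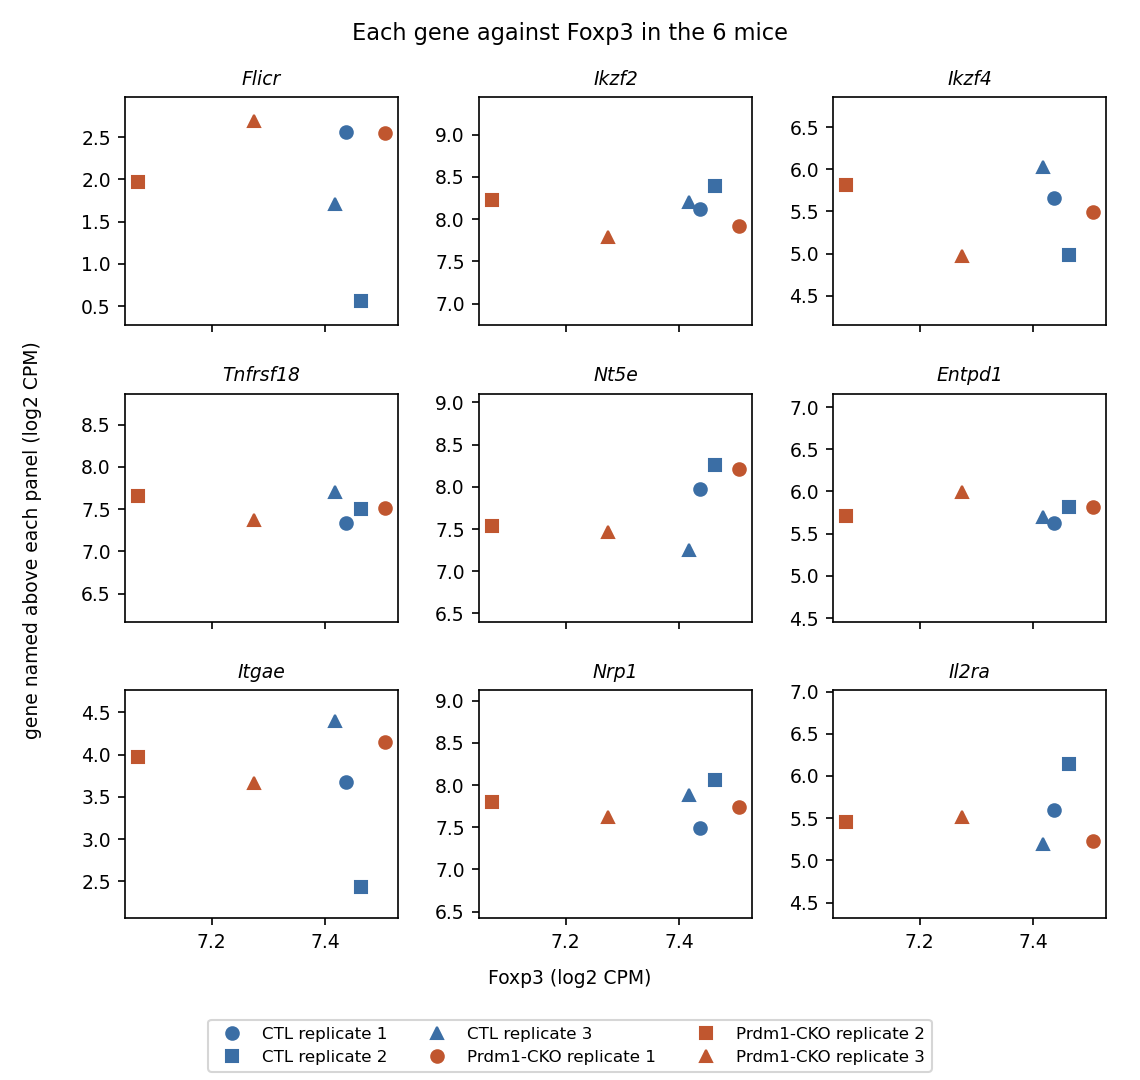
Each of the other 9 Treg genes (vertical axis, log2 CPM, the same span in every panel) against *Foxp3* (horizontal axis, log2 CPM) in the 6 mice, CTL in blue and *Prdm1*-CKO in orange. *Foxp3* spreads little except for *Prdm1*-CKO replicates 2 and 3 at the left, and no panel shows a line through all 6 mice.

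Among all 45 pairs of the 10 genes, 20 had r above 0 and the median r was -0.066. No pair had r above 0.8, and 3 pairs had r under -0.8. These were *Itgae* with *Il2ra* (r = -0.99), *Flicr* with *Nrp1* (-0.90) and *Flicr* with *Ikzf2* (-0.85), picked here as the most extreme of the 45 and given without a test. They kept their sign without CTL replicate 2, at -0.94, -0.81 and -0.81 over 5 mice. In the values, *Itgae* was lowest in CTL replicate 2 (5.21 CPM) and highest in CTL replicate 3 (21.01 CPM), and *Il2ra* had its highest level (70.2 CPM) and its lowest (36.5 CPM) in the same mice. Leaving out CTL replicate 2 changed much of the rest of the pattern, as 28 of the 45 pairs kept their sign, 19 lay above 0 and the median was -0.14. Over those 5 mice, 4 pairs were above 0.8 and 8 were under -0.8, and such counts were not made for pairs of other genes. The 4 were *Tnfrsf18* with *Nrp1* (0.96, against 0.63 over 6 mice), *Ikzf2* with *Ikzf4* (0.94 against 0.23), *Itgae* with *Nrp1* (0.88 against -0.41) and *Tnfrsf18* with *Itgae* (0.85 against 0.40). These 5 genes, singled out after their values were seen and so without a test, had r above 0 in all 10 of their pairs without CTL replicate 2 and in 7 of 10 over all mice.

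**Figure D4:**
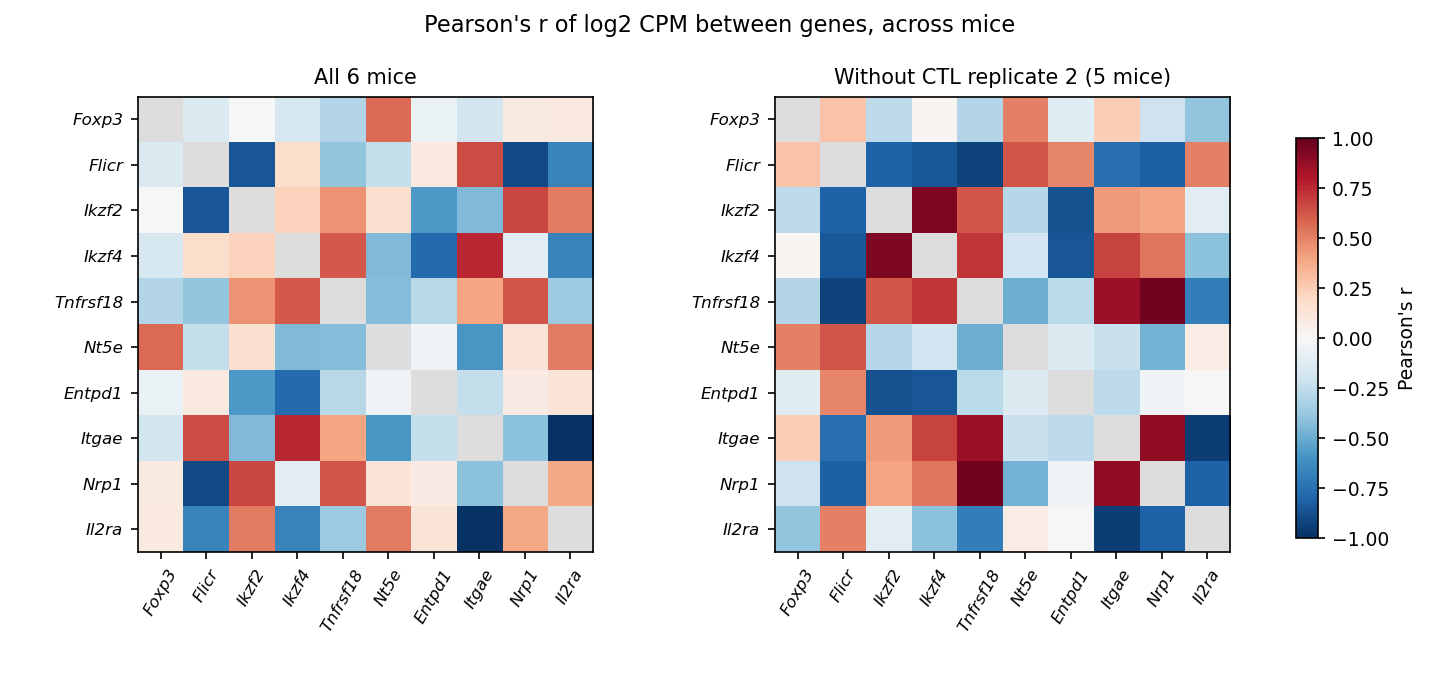
Pearson's r of log2 CPM for each pair of Treg genes, over all 6 mice (left) and over 5 mice without CTL replicate 2 (right), from blue (-1) to red (1), with the diagonal in grey. On the left the signs are mixed, on the right *Ikzf2*, *Ikzf4*, *Tnfrsf18*, *Itgae* and *Nrp1* are red in all 10 of their pairs (0.39 to 0.96), and in both the highest value in the row of *Foxp3* is that of *Nt5e* (0.57 and 0.50).

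A search for genes with a pattern like that of *Foxp3* left out the 10 Treg genes, so it could not return any of them. Of 10723 tested genes with a mean of at least 5 CPM, the 5 with the highest r over the 6 mice were *Camkk1* (0.99), *Klhdc1* (0.98), *Lins1* (0.97), *Zfp983* (0.97) and *Xab2* (0.96), and 53 genes were above 0.9. *Camkk1*, a kinase of the calcium and calmodulin pathway, was at 8.08, 9.003 and 7.69 CPM in CTL and 11.2, 3.25 and 5.82 CPM in *Prdm1*-CKO mice, with the 6 mice in the same order as for *Foxp3*. Without *Prdm1*-CKO replicates 2 and 3, r was 0.99 for *Camkk1*, 0.94 for *Klhdc1* and 0.91 for *Zfp983*, and 0.27 for *Lins1* and 0.38 for *Xab2*. These genes were picked as the extremes of a search over all mice, so their values carry no test.

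A wider list of 20 Treg and Tfr genes was read in the same fit. All 20 were tested, 9 had a log2 fold change above 0 and 11 below, the median was -0.05, and 0 passed an adjusted or an unadjusted p under 0.05 in edgeR. The smallest p values belonged to *Ccr8*, a chemokine receptor of tissue Treg cells, and to *Tnfrsf1b*, the TNF receptor TNFR2. *Ccr8* was at 36.6, 39.0 and 58.4 CPM in CTL and 36.6, 32.8 and 35.7 CPM in *Prdm1*-CKO mice. On the log2 scale the fold change was -0.35 (standard error 0.23). *Tnfrsf1b* was at 552, 276 and 320 CPM in CTL and 569, 400.3 and 491 CPM in *Prdm1*-CKO mice. Here the log2 fold change was 0.35 (standard error 0.27). The groups overlapped for both genes. Of the 20, 1 separated the groups, where 8.42% of all genes tested did. It was *Itgb8*, the integrin chain with which Treg cells activate TGF-β, at 21.6, 21.9 and 20.6 CPM in CTL and 18.3, 20.1 and 13.6 CPM in *Prdm1*-CKO mice (log2 fold change -0.30, standard error 0.25, unadjusted p = 0.255 in edgeR), named here after its values were seen. The other named genes, those with the highest mean CPM, were *Izumo1r*, the folate receptor FR4 of Treg and anergic T cells, between 428 and 604 CPM, and *Il2rb*, the shared IL-2 and IL-15 receptor chain, between 430 and 550 CPM (log2 fold changes of -0.14 and -0.10).

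**Figure D5:**
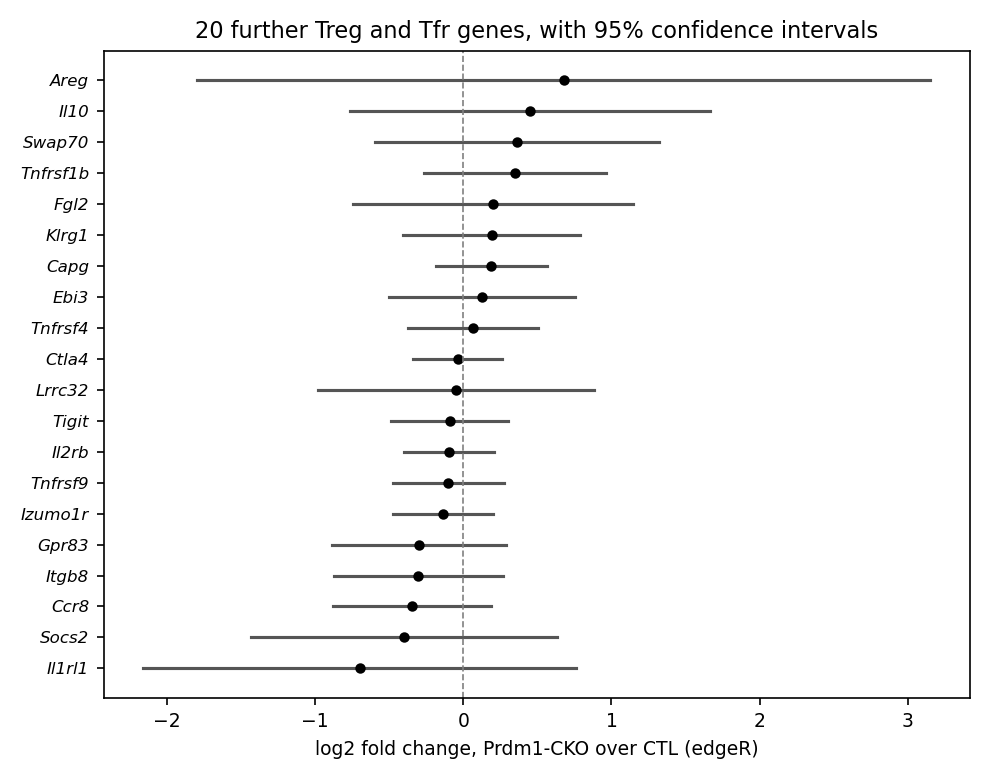
Log2 fold change, *Prdm1*-CKO over CTL, of 20 further Treg and Tfr genes from edgeR (points) with 95% confidence intervals (lines), ordered by value. All 20 intervals cross 0, and the values run from -0.70 (*Il1rl1*) to 0.68 (*Areg*), both genes of low counts.

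Of 16 partners and regulators of FOXP3, 8 had a log2 fold change above 0 and 8 below, with a median of -0.03, and 0 passed an adjusted p under 0.05 in edgeR. At an unadjusted p under 0.05, 1 gene was higher in *Prdm1*-CKO Tfh cells, where 0.928% of all genes tested were. It was *Uhrf1*, which guides DNA methylation to newly copied DNA, at 103, 96.9 and 86.1 CPM in CTL and 124, 120.1 and 136 CPM in *Prdm1*-CKO mice. Every *Prdm1*-CKO mouse was above every CTL mouse, with a log2 fold change of 0.41 (standard error 0.15) and an adjusted p of 0.996 in edgeR. *Gata3*, the Th2 factor that Treg cells also use, was at 205, 256 and 266 CPM in CTL and 182, 203 and 190 CPM in *Prdm1*-CKO mice. All *Prdm1*-CKO values were below the CTL values, with a log2 fold change of -0.34 (standard error 0.15) and an unadjusted p of 0.0552 in edgeR. Across all genes tested, the *Prdm1*-CKO mice were all above in 4.56% and all below in 3.86%. *Nr4a1* and *Nfatc1*, which act downstream of the T cell receptor, were between 217 and 415 CPM and between 207 and 344 CPM, with overlapping groups and log2 fold changes of 0.27 and 0.06.

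In the families around single members the counts were again split or short of the test. The lists count members again: *Ikzf2* and *Ikzf4* as Ikaros genes, *Nt5e* and *Entpd1* in the adenosine pathway and *Il2ra* in the IL-2 receptor pathway. All 5 Ikaros genes had a log2 fold change below 0 (median -0.15), and 0 of 5 passed an adjusted or unadjusted p under 0.05 in edgeR, with *Ikzf1* between 168 and 499 CPM and *Ikzf5* between 0.592 and 3.70 CPM. Of 8 genes of the adenosine pathway, 3 were above 0 and 5 below (median -0.09), and 0 passed either threshold in edgeR. *Adk*, the kinase that removes adenosine, was at 143, 138 and 145 CPM in CTL and 122, 114 and 115 CPM in *Prdm1*-CKO mice. It was lower in every *Prdm1*-CKO mouse, with a log2 fold change of -0.28 (standard error 0.13) and an unadjusted p of 0.0699 in edgeR. The adenosine receptor gene *Adora2b* was between 3.77 and 15.2 CPM and the transporter gene *Slc29a1* between 136 and 185 CPM, with overlapping groups. Of 9 genes of the IL-2 receptor pathway, 2 were above 0 and 7 below (median -0.10), 0 passed either threshold in edgeR, and *Il2rg*, the common gamma chain, was between 326 and 398 CPM. *Jak1*, the kinase bound to IL-2Rβ, ran from 362 CPM in CTL replicate 3 to 991 CPM in CTL replicate 1.

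Markers of other cells in the sort were measured in the same libraries, because macrophages also express *Nrp1* and *Entpd1* and B cells also express *Nt5e*. The summed level of 10 B cell markers was 109 to 181 CPM in CTL and 154 to 242 CPM in *Prdm1*-CKO mice, with all 10 log2 fold changes above 0 (median 0.83). Of 10 macrophage markers, 9 were tested and all 9 were above 0 (median 0.45), with a summed level of 532 to 1569 CPM in CTL, lowest in CTL replicate 2, and 1097 to 1519 CPM in *Prdm1*-CKO mice. The T cell markers, 2 above 0 and 8 below (median -0.05), summed to 7035 to 8278 CPM over the 6 mice. *Cd28* (log2 fold change -0.36, unadjusted p = 0.0247 in edgeR) and *Cd4* (-0.29, unadjusted p = 0.0465 in edgeR) were lower in every *Prdm1*-CKO mouse, where 1.42% of all genes tested were lower at an unadjusted p under 0.05, and neither passed an adjusted p (0.996 each). In the other lists, 3 of 5 tested erythroid markers were higher in *Prdm1*-CKO Tfh cells at an unadjusted p under 0.05 in edgeR (*Hbb-bs*, unadjusted p = 0.0162, *Hba-a1*, unadjusted p = 0.0425, and *Hbb-bt*, unadjusted p = 0.0455), as was the plasma cell gene *Jchain* (unadjusted p = 0.0377), where 0.928% of all genes tested were higher. The groups overlapped for all 3 erythroid genes. *Prdm1*-CKO replicate 2 (7.12, 2.85 and 0.813 CPM) lay below CTL replicate 3 (9.77, 2.96 and 0.888 CPM) in each. *Cd8a*, a CD8 coreceptor chain, was lower (unadjusted p = 0.0270 in edgeR), as were 1.42% of all genes tested at an unadjusted p under 0.05. *Cd8a* was at 1.23 to 4.98 CPM in CTL and 0.411 to 0.813 CPM in *Prdm1*-CKO mice, on 6 to 42 counts per library. The other CD8 chain, *Cd8b1*, went the opposite way, with every *Prdm1*-CKO mouse above every CTL mouse. Its mean was 11.5 CPM in CTL and 15.5 CPM in *Prdm1*-CKO mice (log2 fold change 0.44, unadjusted p = 0.153 in edgeR). The summed plasma cell markers narrowly did not overlap, at 404 to 646.2 CPM in CTL and 646.7 to 866 CPM in *Prdm1*-CKO mice (exact two-sided permutation p = 0.1, the lowest this design can give). *Jchain* (254 to 383 CPM in CTL, 363 to 636 in *Prdm1*-CKO mice) and *Xbp1* (146 to 233 and 197 to 254) had the highest levels, and both overlapped. Of the 6 plasma cell markers, 1 (*Mzb1*) separated the groups, where 8.42% of all genes tested did. The 10 Tfh markers were divided 5 and 5 (median -0.01). Among 6 plasma cell markers 5 were above 0 (median 0.41), among 7 tested dendritic cell markers 4 (0.32), among 8 CD8 and NK cell markers 3 (-0.30), among 5 tested erythroid markers 5 (1.29) and among 2 tested endothelial and platelet markers 1 (-0.46). No marker gene of these lists was at 0 in all 6 mice, but *Ppbp* had only 2 counts in *Prdm1*-CKO replicate 3 and 0 in every other mouse. No marker gene passed an adjusted p under 0.05 in edgeR, and the part of these markers in the levels of the Treg genes was not tested.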

How the data were processed

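Tfh cells were sorted from spleens of 6 mice (3 CTL, 3 *Prdm1*-CKO), with 1 Smart-seq2 library from each. Per gene, raw read counts were deposited by the authors, made with featureCounts from reads aligned to mm10/GRCm38 with a GENCODE annotation; per the labels, the processing notes name STAR 2.4.2a, build GRCm38.p6 and DESeq2. Strandedness and the handling of reads on overlapping genes are not given in the sources used here. Groups came from the sample labels.

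Identifiers were matched without their version to GENCODE M21, which holds 53274 of 53379 (50604 in the same version; *Foxp3* and *Flicr* differ in version). Counts were tested with edgeR 4.0.16 in R 4.3.3: TMM normalization, filterByExpr, the quasi-likelihood F test without a covariate, and Benjamini-Hochberg adjustment over 14555 genes at 0.05. CPM used TMM library sizes, and log2 CPM a prior count of 2. Correlations used exact permutation over 6 mice. On simulated counts, edgeR recovered 67.5% of 200 genes changed 4-fold among 14605 genes, with 5 false calls. The simulation held no smaller changes and no library that stood apart as CTL replicate 2 did. Its recovery rate therefore does not apply to smaller changes in these mice. Alternatives were DESeq2 1.42.0, its size factors, scaling to 10 T cell genes, 2 other filters, the replicate number as a block, voom in limma 3.58.1 with quality weights, thinned libraries and each mouse left out. The genes described and the lists were chosen with earlier results of these data known. The text names all 10 Treg genes, the 5 genes most correlated with *Foxp3*, and of each list the 2 genes with the smallest p and the 2 with the highest mean CPM, the marker lists mostly by their counts alone. Promoter sequences are from RefSeq.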

Additional observations from a re-analysis of the deposited data

How the results depend on the processing

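None of the 10 Treg genes passed an adjusted or unadjusted p under 0.05 in the 13 alternative fits. The smallest unadjusted p was 0.0514 and the smallest adjusted p 0.737 in edgeR. Of the fold changes, 5 genes (*Foxp3*, *Flicr*, *Ikzf2*, *Entpd1* and *Il2ra*) kept their direction in all 13, and 68 of 70 values with all mice did. The exceptions were *Tnfrsf18* with DESeq2's size factors (log2 fold change -0.0049) and *Nrp1* in voom (0.0094); the cause was not tested. With 1 mouse left out, 9 of 60 changed direction. The ranges were -0.40 to 0.10 for *Ikzf4* (above 0 without CTL replicate 3 or *Prdm1*-CKO replicate 3), -0.10 to 0.10 for *Tnfrsf18*, -0.38 to 0.11 for *Nt5e*, -0.15 to 0.76 for *Itgae* and -0.26 to 0.010 for *Nrp1*. The last 3 crossed 0 without CTL replicate 2, and *Nt5e* also without *Prdm1*-CKO replicate 3. *Tnfrsf18* did so without *Prdm1*-CKO replicate 2 and without either CTL replicate 1 or 2. The median of the 10 ran from -0.14 to 0.035, and was above 0 without CTL replicate 3 or *Prdm1*-CKO replicate 3. Over all genes, DESeq2 called 9 genes by its adjusted p (threshold 0.05) and 681 by the unadjusted, and edgeR without a filter, which tests more genes, called 1 and 936. With 1 mouse left out, from 166 (without *Prdm1*-CKO replicate 3) to 1039 (without CTL replicate 1) passed the unadjusted threshold and 0 the adjusted one; the number was 915 with CTL replicate 3 left out and 180 without *Prdm1*-CKO replicate 1.

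For correlations with *Foxp3*, 36 of 45 values with all mice kept their sign. T cell gene scaling gave r = 0.038 for *Flicr* and 0.21 for *Entpd1*, and moved *Nt5e* from 0.57 to 0.81 (exact permutation p = 0.0625, unadjusted) and *Tnfrsf18* from -0.29 to -0.62; signs also changed with thinning, to 0.048 for *Flicr* and 0.055 for *Ikzf2*, DESeq2's size factors, to 0.035 for *Ikzf2*, and removal of the group means, to 0.19 for *Flicr*, 0.30 for *Entpd1*, -0.050 for *Nrp1* and -0.14 for *Il2ra*; the cause was not tested. With 1 mouse left out, 12 of 54 changed sign, and the median ran from -0.14 to 0.30, the latter without *Prdm1*-CKO replicate 2. The ranges of r were -0.33 to 0.28 for *Flicr*, -0.27 to 0.50 for *Ikzf2*, -0.40 to 0.34 for *Ikzf4*, -0.52 to 0.30 for *Tnfrsf18*, -0.59 to 0.27 for *Entpd1*, -0.37 to 0.24 for *Itgae*, -0.21 to 0.34 for *Nrp1* and -0.40 to 0.34 for *Il2ra*.

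For mice with the same replicate number, the deviations from the group means correlated at 0.158, 0.028 and 0.016. Mice with different numbers were not compared in this way, so these values cannot show whether a number marks a shared batch. With the replicate block, 0 genes passed an adjusted p under 0.05 in edgeR and 371 an unadjusted one, against 342, 0 of the 10 Treg genes passed either, and their median log2 fold change was -0.09. Depth limited *Flicr* and *Itgae* most, with as few as 11 and 44 counts in a library.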
